A study of Mus musculus with 36 samples.

Results

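Ntf3, Defb1, Myom2 and Gngt1 are 4 genes best known outside the liver whose transcripts differed very widely between livers with and without the hepatocyte insulin receptor. They were chosen by those ratios of knockout to control signal and matched by the gene name that the array files give each probe, and are 4 of the 23054 genes tested, read by 5 of the 56605 probes on the array. Because the ratio of knockout to control chose them, it is described below without a test. Only the changes with time inside a genotype were tested. Those tests use the same values that entered the ratios, so they are not free of the choice.

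Liver RNA came from 36 male mice, 1 Agilent array per mouse, aged 11 weeks and with chow at all times. The labels also say that the mice were untreated. Livers were taken at Zeitgeber time (ZT, hours after lights-on) 8, 12 or 16, and the lights went off at ZT12. There were 6 mice in each of the 6 combinations of genotype and time. The knockouts (IRLKO) descend from mice with LoxP sites around the fourth exon of Insr, the insulin receptor gene, crossed to a C57BL/6J line that carries a tamoxifen-inducible Cre under the transthyretin promoter (TTR-CreTam). These carry the deletion in hepatocytes (IRhep-/-), and the controls (IRLWT, IRhep+/+) do not. Whether and when tamoxifen was given, and whether controls carried LoxP sites or the Cre, is not said in the labels, which separate the mice by title only. RNA is from whole liver, so fewer cells of a type and less RNA per cell cannot be told apart.

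Neurotrophin-3, the product of Ntf3, is a secreted growth factor of the neurotrophin family, which binds the receptor tyrosine kinase TrkC and the shared receptor p75. β-Defensin 1, from Defb1, is a small cationic antimicrobial peptide of epithelia such as the kidney tubule. Myomesin-2, from Myom2, crosslinks myosin filaments at the M-band of striated muscle, and the Gngt1 product is the γ subunit of transducin, the G protein of the light response in rod photoreceptors. In hepatocytes the insulin receptor acts after feeding, through AKT and the FoxO factors among others, on genes of glucose and lipid metabolism.

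The arrays read each transcript through probes of 60 bases, and the first 30 bases of each are shown because every value below is the signal of 1 of these strands. Positions are those given in the files, on build mm9. For Ntf3 the probe lies at chr6:126051431-126051490, for Defb1 at chr8:22905599-22905658, for Gngt1 at chr6:3946662-3946721, and for Myom2 at chr8:15133322-15133381 and chr8:15073624-15073683.
Ntf3 A_55_P2021565: tttggcattcagtattgtcaaggccatgac
Defb1 A_55_P2893078: cttttttgctgttgtgtctgtagacatgca
Myom2 A_51_P431785: cacatttctggaaaccctttgtggagcctt
Myom2 A_52_P322523: ctgactatggtatgtaaagtctgaagagtt
Gngt1 A_51_P383774: gttgtgaagaagtgagagattatattgaag
The longest run of bases that a member's probe shared with any of the other 56604 probes, on either strand, was 13 bases for Ntf3, 16 for Defb1, 14 for the first Myom2 probe, 15 for the second and 15 for Gngt1. The second Myom2 probe was well above background (a flag of the scanner software) on 1 of 36 arrays and was not tested, so the first one stands for the gene. The exon that each probe reads was not determined.

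RefSeq windows of the 250 bases before a transcript start were at hand for Ntf3, which has 2 starts, and for Gngt1, on build GRCm38.p6. The 2 printed here belong to the members that passed a test of time in knockouts. Capitals mark a match to the E-box CACGTG, the only match found.
Ntf3, minus strand, chr6:126166745-126166994: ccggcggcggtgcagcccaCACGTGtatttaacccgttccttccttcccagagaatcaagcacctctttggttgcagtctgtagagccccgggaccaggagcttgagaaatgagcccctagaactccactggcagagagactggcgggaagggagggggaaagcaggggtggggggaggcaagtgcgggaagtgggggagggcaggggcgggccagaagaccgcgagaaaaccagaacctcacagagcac
Gngt1, plus strand, chr6:3993758-3994007: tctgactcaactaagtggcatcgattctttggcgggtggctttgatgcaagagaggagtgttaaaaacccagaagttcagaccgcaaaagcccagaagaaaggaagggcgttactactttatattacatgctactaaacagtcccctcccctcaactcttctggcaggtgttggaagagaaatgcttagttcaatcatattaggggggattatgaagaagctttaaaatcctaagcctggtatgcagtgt
The E-box lies 231 bases before the upstream Ntf3 start, and 6.02% of the 32851 RefSeq windows of this length hold one. Both strands were searched for 4 other motifs, none of which was found in these windows or in that of the second Ntf3 start. They were the FoxO core TGTTTAC (in 3.17% of windows), the insulin response sequence CAAAACAA (2.21%), the STAT5 sequence TTCNNNGAA (7.02%) and a consensus of the glucocorticoid receptor element (0.387%). No motif holds another. A match or its lack describes these letters and nothing about a factor.

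All values are log2 signal minus the 75th percentile of the array, so 0 is that percentile, and each is the level of 1 probe that cannot be set against another probe's level. The 75th percentile ran from 311 to 525.5 intensity units, and 53.7% to 63.1% of spots were well above background. The lowest signal flagged so on an array lay between -5.54 and -4.50. Insr itself was at 29.3%, 27.2% and 31.8% of control at the 3 times, with all 6 knockouts below all 6 controls each time, by the brighter of its 2 probes. On the dimmer one 6, 6 and 4 of 6 knockouts lay below all controls. Knockout ZT8 replicate 3 stood apart from its group: its median absolute distance to the mean of the other 5 arrays, over all genes, was 0.33, against 0.12 to 0.25 for the 35 other arrays. Insr was -3.54 on it, the lowest of its group (others -3.42 to -2.94).

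Ntf3 was far higher in knockouts. In ZT8 controls its signal ran from -3.67 to -2.95, with a median of -3.23, and in ZT8 knockouts from 1.01 to 2.17, with a median of 2.04. In intensity units this was 27.1 to 57.5 against 999 to 2168. A dim but measurable transcript in controls was thus a bright one in knockouts. The ZT12 controls lay between -3.72 and -2.63 (median -3.14) and the ZT12 knockouts between 0.99 and 2.13 (median 1.55). For ZT16 the limits were -3.46 and -1.97 in controls (median -2.96), and -0.32 and 1.26 in knockouts (median 1.01). Every knockout lay above every control at each time, with gaps of 3.96, 3.62 and 1.65. Knockouts lay wholly above the controls for 6.13%, 8.38% and 9.22% of all genes tested at these times, and nothing is read from the comparison, since this contrast chose the gene.

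The fitted ratio of Ntf3 was 35.9-fold at ZT8 (log2 5.17, SE 0.26), 26.9-fold at ZT12 (log2 4.75) and 13.2-fold at ZT16 (log2 3.72), which ranked 10, 13 and 19 among the rises over all genes. The order of the group means was ZT8, ZT12 and ZT16 knockouts at 1.88 ± 0.43 (SD, n = 6), 1.62 ± 0.44 and 0.82 ± 0.60, then ZT16, ZT12 and ZT8 controls at -2.87 ± 0.50, -3.13 ± 0.44 and -3.29 ± 0.29. Neighbours among the 3 control means, and the ZT8 and ZT12 knockout means, differed by less than their SDs. Inside a wash batch, with 1 to 3 arrays of each group, the log2 ratio lay between 2.44 and 5.51 over the 3 times. Under normexp background correction, which raises the dimmest signals, the log2 ratios were 3.72, 3.42 and 2.60, still upward.

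Defb1 was not well above background on any of the 18 control arrays and was so on all 18 knockouts. Control signals ran from -7.43 to -5.12 at ZT8 (median -6.86), from -7.45 to -6.96 at ZT12 (median -7.26) and from -7.45 to -6.72 at ZT16 (median -7.26). Those of the knockouts ran from -2.45 to 0.02 at ZT8 (median -1.65), from -2.87 to -1.01 at ZT12 (median -1.99) and from -3.27 to -1.04 at ZT16 (median -2.18). In intensity units the ZT8 controls were 2.01 to 11.6 and the ZT8 knockouts 70.7 to 502. The groups lay 2.68, 4.10 and 3.44 apart at the 3 times.

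The Defb1 control level is only bounded, so its ratio is given against the lowest signal well above background on each control array. On that reckoning the transcript was at least 10.2-fold higher in knockouts at ZT8 (8.27-fold without knockout ZT8 replicate 3), at least 8.14-fold at ZT12 and at least 7.56-fold at ZT16. The knockout means were -1.53 ± 0.95 (SD, n = 6), -2.05 ± 0.72 and -2.05 ± 0.79, and neighbours in this order differed by less than their spread. The highest value of all, 0.02, was that of knockout ZT8 replicate 3, whose group otherwise ran from -2.45 to -1.07.

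Myom2 was the opposite case, bright in controls and dim in knockouts. Control signals ran from 2.77 to 3.50 at ZT8 (median 3.10), from 3.45 to 4.49 at ZT12 (median 4.18) and from 4.43 to 4.87 at ZT16 (median 4.48). Those of knockouts ran from -4.55 to 0.19 at ZT8 (median -3.52), from -3.06 to 0.80 at ZT12 (median -1.93) and from -3.15 to -0.45 at ZT16 (median -2.08). All 36 signals were well above background, and the genotypes did not overlap at any time. In intensity units the ZT8 groups were 2758 to 3965 in controls and 14.1 to 565 in knockouts.

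The knockouts lay below every control by 2.58, 2.65 and 4.88 at ZT8, ZT12 and ZT16. Of all genes tested, 9.38%, 13% and 10% had knockouts wholly below controls, a share from which nothing is read here. The ratio of Myom2 was 75.2-fold lower at ZT8 (log2 -6.23, SE 0.57), 46.3-fold lower at ZT12 (log2 -5.53) and 104-fold lower at ZT16 (log2 -6.70), ranks 7, 7 and 4 among the falls, and left 1.33%, 2.16% and 0.96% of the control signal. Without knockout ZT8 replicate 3 the ZT8 log2 ratio was -6.90. Within wash batches it ran from -7.77 to -3.56 over the 3 times. The knockout means were -3.01 ± 1.66 (SD, n = 6), -1.60 ± 1.54 and -2.10 ± 1.02, with neighbours in order closer than their spread.

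Gngt1 was lower in knockouts at all times, by a margin that narrowed by ZT16. Control signals, all well above background, ran from -1.86 to -0.44 at ZT8 (median -1.19), from -2.96 to -0.29 at ZT12 (median -1.52) and from -3.06 to -0.62 at ZT16 (median -1.77). The knockouts ran from -7.10 to -4.85 at ZT8 (median -5.77), where 0 of 6 arrays were well above background, from -7.04 to -4.03 at ZT12 (median -5.90, 1 of 6) and from -4.91 to -3.08 at ZT16 (median -3.70, 5 of 6). In intensity units the ZT8 groups were 104 to 297 and 2.74 to 13.9. The gaps between genotypes were 3.00, 1.07 and 0.020, so at the last time the lowest control and the highest knockout nearly met.

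At ZT8 the fall of Gngt1 was at least 13.6-fold. The fitted ratio at ZT12 was 15.0-fold lower, with 5 of 6 knockouts at or near background, and at ZT16 it was 3.77-fold lower (log2 -1.92, SE 0.42). The group means were -1.25 ± 0.51 (SD, n = 6), -1.66 ± 0.98 and -1.78 ± 0.90 in controls, each within the spread of the next. In knockouts they were -5.84 ± 0.88, -5.74 ± 1.11 and -3.77 ± 0.64, with the ZT16 mean apart from the others. The within-batch log2 ratios ran from -5.60 to -3.60 at ZT8 and from -2.05 to -1.80 at ZT16. The ZT8 bound holds for the main processing only. With normexp correction the log2 ratio at ZT8 was -1.73, and in the authors' deposited table -2.46.

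**Figure D1:**
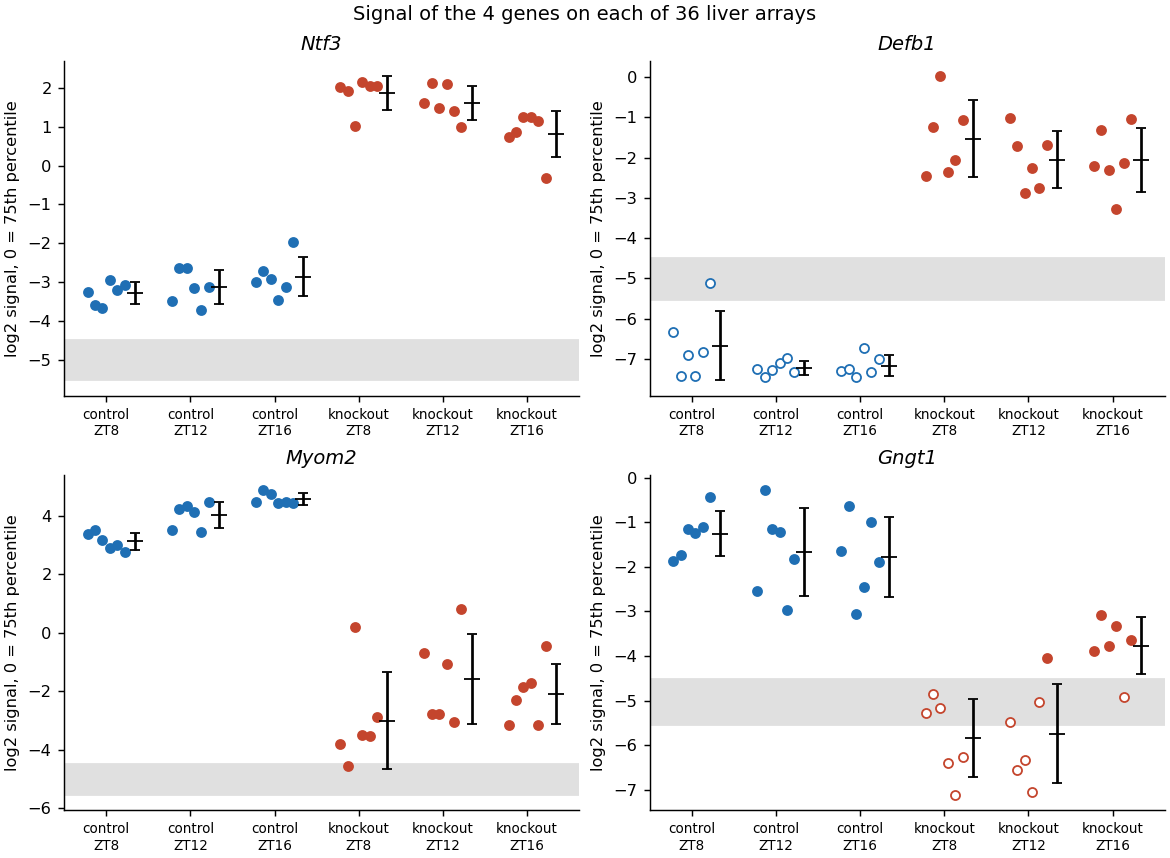
Each point is 1 array (6 per group), as log2 signal relative to the array's 75th percentile; open points were not well above background, bars give the mean ± SD and the grey band spans the lowest signals well above background on the arrays (-5.54 to -4.50). Ntf3 and Defb1 lie higher in all 18 knockouts than in any control at the same time, Myom2 and Gngt1 lower, and the Gngt1 knockouts approach the controls at ZT16.

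How far the genotype ratio held over the day could be measured for Ntf3 and Myom2. The log2 ratio of Ntf3 changed by -1.44 from ZT8 to ZT16 (95% interval -2.21 to -0.68). For Myom2 the difference was -0.47 (-2.13 to 1.19), an interval wide enough to hold a 2-fold difference either way, and single arrays turn its direction, since it was 0.27 without knockout ZT8 replicate 3 and -0.89 without knockout ZT8 replicate 2. The fall of Gngt1 went from at least 13.6-fold to 3.77-fold; the fitted difference of 2.85 rests on ZT8 knockout signals at background and was 0.75 under normexp correction. For Defb1 both ratios are bounds, so their difference was not measured. These differences are built from the ratios that chose the genes and carry no test.

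**Figure D2:**
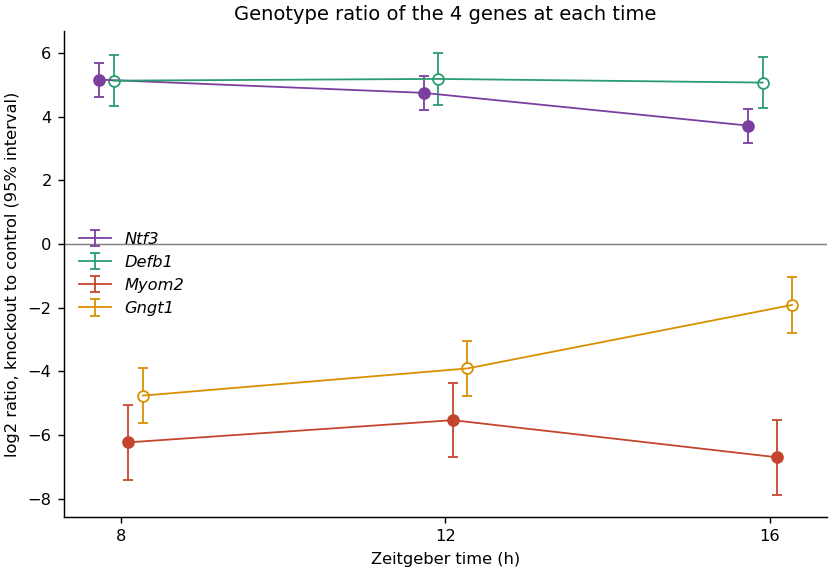
Points are log2 ratios of knockout over control from the fit at each time, with 95% intervals; open points have at least 1 group with arrays not well above background, where the size is not fully measured. The line of Gngt1 rises from -4.76 to -1.92 and that of Ntf3 falls from 5.17 to 3.72, while Myom2 stays between -6.70 and -5.53. All 3 points of Defb1 are open.

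Time was tested within each genotype by limma, adjusted over all 23054 genes. The values tested also entered the ratios that chose the genes, so the p-values are not independent of that choice. In knockouts 2 of the 4 members changed from ZT8 to ZT16, Ntf3 downward and Gngt1 upward, where 28.9% of all genes were called. From ZT12 to ZT16 it was the same 2, against 12.6% of all genes. None of the 4 passed from ZT8 to ZT12 (13.2% of all genes were called), with 1 at an unadjusted p under 0.05 and 0 by the exact permutation test. In controls none of the 3 measured members passed from ZT8 to ZT12 (14.8% of all genes), ZT12 to ZT16 (3.62%) or ZT8 to ZT16 (26.6%). At an unadjusted p under 0.05 the control counts were 0, 0 and 1, and by the exact permutation test 1, 1 and 1, each time Myom2. The share of all genes passing these unadjusted thresholds is not given, so nothing is read from such counts in either genotype.

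Ntf3 fell in knockouts by 1.05 on the log2 scale from ZT8 to ZT16, a 2.07-fold drop (SE 0.26, limma adjusted p 0.00248, exact permutation p 0.00866, 3 of 6 ZT16 arrays below all ZT8 arrays). Within the 3 wash batches the difference was -1.0, -1.1 and -1.02. From ZT12 to ZT16 it fell by 0.80 (adjusted p 0.0408, exact p 0.0173), a call lost under 3 alternatives and without any of 7 single arrays. The value was -0.58 (adjusted p 0.133) without knockout ZT16 replicate 6, the array at -0.32. Within wash batches 1, 2 and 3 this ZT12 to ZT16 difference was -1.08, -0.94 and 0.07, the last with 1 ZT12 knockout. Between ZT8 and ZT12 the change was -0.25 (adjusted p 0.626). In controls the differences were 0.17, 0.23 and 0.39 (limma adjusted p 0.749 for ZT8 to ZT12, 0.773 for ZT12 to ZT16 and 0.297 for ZT8 to ZT16).

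Gngt1 rose in knockouts by 2.25 from ZT8 to ZT16 (SE 0.42, limma adjusted p 1.2e-04, exact permutation p 0.00433, 5 of 6 arrays above all ZT8 arrays). Since no ZT8 knockout was well above background, the rise is at least 2.39-fold. From ZT12 to ZT16 it rose by 1.81 (adjusted p 0.00388, exact p 0.00433), and from ZT8 to ZT12 the difference was 0.44 (adjusted p 0.586). The ZT8 to ZT16 rise was 1.31, 2.71 and 2.78 within wash batches. Both calls were lost with normexp correction, at 0.41 (adjusted p 0.143) and 0.31 (adjusted p 0.398), and the second also in the authors' deposited table of processed values. The control differences were -0.41, -0.19 and -0.60 for ZT8 to ZT12, ZT12 to ZT16 and ZT8 to ZT16 (adjusted p 0.593, 0.905 and 0.334).

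Myom2 stood higher at each later time in controls, with means of 3.13 ± 0.28 (SD, n = 6), 4.03 ± 0.43 and 4.58 ± 0.19. All 6 ZT16 controls lay above all ZT8 controls, 2.77-fold in the fit (log2 1.47, SE 0.57), with an exact permutation p of 0.00216, the smallest that 6 against 6 allows. The limma adjusted p was 0.0564 and missed the threshold. That fit gives all 6 groups 1 spread, and the pooled SD of Myom2 within groups was 1.43 in knockouts and 0.32 in controls. Fitted on the 2 groups alone the same difference had an adjusted p of 6.1e-05, and it passed under 4 of 11 alternatives. Within the 3 wash batches it was 1.17, 1.34 and 1.76. ZT8 to ZT12 in controls gave 0.90 (adjusted p 0.333, exact p 0.00433) and ZT12 to ZT16 gave 0.57 (adjusted p 0.726, exact p 0.0108).

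In knockouts the Myom2 differences were 1.60 for ZT8 to ZT12 (limma adjusted p 0.0699, exact permutation p 0.158), -0.60 for ZT12 to ZT16 (adjusted p 0.63) and 1.00 for ZT8 to ZT16 (adjusted p 0.211). Single arrays decide the first and the last, since without knockout ZT8 replicate 3 they were 2.29 (adjusted p 0.00115) and 1.67 (adjusted p 0.00674). The first also passed without knockout ZT12 replicate 3 (1.95, adjusted p 0.0288) and had an adjusted p of 0.05 without replicate 5 of that group (1.81), while without its replicate 6 it was 1.00 (adjusted p 0.284). The last was 0.62 (adjusted p 0.499) without knockout ZT8 replicate 2. Defb1 in knockouts differed by -0.50, -0.011 and -0.51 over the same spans (adjusted p 0.489, 0.992 and 0.373), and the first and last were -0.19 and -0.21 without knockout ZT8 replicate 3 (adjusted p 0.791 and 0.728). In controls it was below background at all times, so a change there could not be measured.

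The members also differed in how far mice of 1 group varied. The SD of Myom2 within knockout groups, 1.43, was exceeded by 27 of the 18669 genes well above background on all knockout arrays, whose median SD was 0.22. Without knockout ZT8 replicate 3 it was 1.15, exceeded by 34. In controls 2816 of 18285 genes varied more than Myom2. Defb1 in knockouts had an SD of 0.83 (261 genes larger; 0.72 without the same array) and Gngt1 in controls one of 0.82 (98 larger, median of all genes 0.18), while Ntf3 had 0.50 in knockouts and 0.42 in controls.

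Whether the members vary together among mice was examined in 6 relations of deviations from the group mean, 18 arrays of 1 genotype each, with permutation tests (100000 draws) and Benjamini-Hochberg adjustment. In knockouts Ntf3 and Myom2 gave r = -0.60 (permutation p 0.0123, adjusted p 0.0504) and rho = -0.20 (adjusted p 0.473). Without the 2 arrays farthest from the median of Ntf3, r was -0.24, so the relation rests on them. Ntf3 with Defb1 gave r = -0.55 (adjusted permutation p 0.054), rho = -0.40, and r = -0.19 without 2 arrays. Defb1 with Myom2 gave r = 0.60 (adjusted permutation p 0.0504), rho = 0.44, and r = 0.37 without 2 arrays. With knockout ZT8 replicate 3 left out, these 3 values of r were -0.43, -0.39 and 0.40. The other 3 relations, in controls, were those of Ntf3 with Gngt1 (r = 0.50, rho = 0.57, adjusted permutation p 0.101 for r), Myom2 with Gngt1 (r = 0.28) and Ntf3 with Myom2 (r = 0.25). No relation passed after adjustment.

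The genes whose pattern was most like a member's were found by Pearson r over the 36 arrays among 19588 genes well above background on at least 30 of them. Such an r holds the genotype difference and is a description. Nearest to Ntf3 were Gpx3 (0.97), which encodes the plasma glutathione peroxidase, the lactate dehydrogenase subunit gene Ldhb (0.97) and the homeobox gene Cux2 (0.96). For Defb1 they were again Gpx3 (0.97), then Epb41l1 (0.96), a cytoskeletal protein gene, and Akr1b7 (0.96), an aldo-keto reductase gene. For Gngt1 they were Tbc1d7 (0.94), Vcl (0.93) and Atg5 (0.92), whose own ratios were far smaller, between -1.08 and -0.39.

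Among the genes close to Myom2 were Klk1b24 (0.96) and Klk1b26 (0.95), kallikreins of a gene family whose near-identical members a probe may not separate. The log2 ratios of Klk1b24 were -2.30, -2.29 and -2.46, beside -6.23, -5.53 and -6.70 for Myom2. The deviations of Klk1b24 and Myom2 from their group means had an r of 0.73 among knockouts and 0.14 among controls. The knockout value rests on 2 arrays, since it was 0.52 without ZT8 replicate 3 and 0.048 without that array and ZT12 replicate 6, a choice made after the values were seen.

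With group means removed, other genes came first, and each r is again a description. For Gngt1 they were Aqp8 (0.85), a water channel gene, Tlcd2 (0.82) and Pnpla5 (0.81), a lipase family gene. Aqp8 was picked by its r over these same arrays, so its values inside each genotype are no separate support. They were 0.83 in knockouts (where 6 of 18 Gngt1 signals were well above background) and 0.89 in controls (0.71 and 0.85 without the 2 arrays farthest from the Aqp8 median). The log2 ratios of Aqp8 were -2.84, -3.96 and -2.79. For Myom2 they were Naaa (0.85), E2f1 (0.84) and Zwilch (0.83). Among knockouts these 3 had an r of 0.89, 0.88 and 0.89, and among controls 0.089, 0.25 and -0.50. Over both genotypes they had 0.75, 0.74 and 0.73 without knockout ZT8 replicate 3. The 3 nearest to Ntf3 were Fmo2 (0.74), Nrn1 (0.73) and Dio3os (0.72), or 0.68, 0.68 and 0.72 without that array. To Defb1 they were Stambpl1 (0.70), Lig1 (0.69) and Tm9sf4 (0.69), or 0.61, 0.59 and 0.61. In knockouts their r with Defb1 was 0.86, 0.75 and 0.84. In controls, where 0 of 18 Defb1 signals were well above background, it was 0.17, 0.52 and 0.20.

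**Figure D3:**
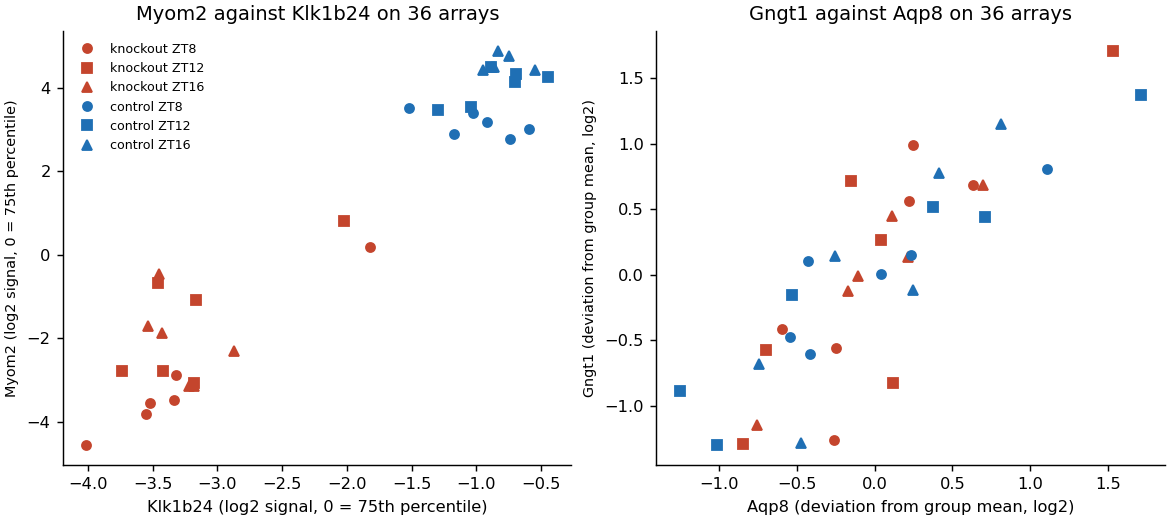
Each point is 1 of 36 arrays, with shape for time and colour for genotype. On the left, log2 signals of Klk1b24 and Myom2, where the knockouts lie below and to the left of the controls and 2 of them stand apart at the upper right of theirs (deviation r = 0.73 among knockouts, 0.048 without those 2). On the right, deviations of Aqp8 and Gngt1 from their group means (r = 0.83 in knockouts and 0.89 in controls), with Aqp8 picked by its r over these same arrays.

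Other neurotrophin genes were called in both directions. Bdnf was lower and Ntf5 higher in knockouts at each time (limma adjusted p under 0.05). Over all genes 35.4%, 42.2% and 39.9% were called at ZT8, ZT12 and ZT16, made up of 16.7%, 19.6% and 19.9% higher and 18.7%, 22.6% and 20% lower. Bdnf, brain-derived neurotrophic factor, fell by 2.84, 2.86 and 3.14 on the log2 scale (adjusted p 4.1e-11, 2.6e-11 and 2.6e-12), to levels well above background on only 7 of 18 knockouts. Ntf5, neurotrophin-4, rose, by at least 1.35-fold at ZT8, at least 4.36-fold at ZT12 and 1.39 on the log2 scale at ZT16 (adjusted p 0.00555, 3.7e-06 and 0.00765), from a control level well above background on 3 of 18 arrays.

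Of 6 receptor genes tested, 0 were higher and 1 lower at ZT8, 0 and 1 at ZT12, and 2 and 0 at ZT16. Beside these, 16.7%, 19.6% and 19.9% of all genes were higher and 18.7%, 22.6% and 20% lower. Ntrk3, which encodes TrkC, the preferred receptor of neurotrophin-3, was well above background on 9 knockout and 4 control arrays and was not called (log2 0.05, 0.45 and 0.14, adjusted p 0.897, 0.12 and 0.68). Ntrk2 (TrkB) was measured on all arrays and was not called either (0.36, 0.06 and 0.37, adjusted p 0.535, 0.915 and 0.497). Ngfr (p75) rose by 0.68 at ZT16 (adjusted p 0.0163) and gave -0.28 and 0.48 at ZT8 and ZT12. Sort1, sortilin, which binds the precursors, fell by 0.69 at ZT8 and by 0.39 at ZT12 and rose by 0.68 at ZT16 (adjusted p 7.2e-04, 0.0413 and 7.1e-04). Its relative Sorcs1 gave 0.39, -0.06 and -0.12 (adjusted p 0.245, 0.873 and 0.746).

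Among 10 genes of precursor cleavage and receptor adaptors, 1 was higher and 2 lower at ZT8, 1 and 3 at ZT12, and 0 and 1 at ZT16. The shares over all genes were 16.7%, 19.6% and 19.9% higher and 18.7%, 22.6% and 20% lower. The proprotein convertase Pcsk5 rose by 0.86 and 0.57 at ZT8 and ZT12 (adjusted p 1.7e-06 and 4.0e-04). Pcsk6, another convertase, fell by 0.40, 0.75 and 1.07 (adjusted p 0.0152, 2.6e-05 and 8.7e-08). The adaptors Frs3 and Shc1 were lower at 1 time each, by 0.32 at ZT12 and by 0.20 at ZT8 (adjusted p 0.0243 and 0.02).

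No other β-defensin gene was called by limma. Of the 42 on the array, Defb1 included, 21 had no probe well above background on any array. Besides Defb1, 5 passed the filter on dim probes, Defb7, Defb11, Defb14, Defb25 and Defb45, with log2 ratios between -0.77 and 0.75 at the 3 times. In that order they were well above background on 6, 32, 6, 14 and 7 of 36 arrays. For all but Defb11 the ratios rest largely on background, so the lack of a call is no measured lack of change. Of these 0 passed at any time, and 0 had an unadjusted p under 0.05 (the lowest was 0.0573, for Defb14 at ZT12). A further list of 15 tested genes held other antimicrobial genes and the receptor gene Ccr6. Of these, 5, 6 and 7 were higher and 1 was lower at ZT8, ZT12 and ZT16, with Ccr6 among the higher ones each time. Of all genes 16.7%, 19.6% and 19.9% were higher. Leap2, liver-expressed antimicrobial peptide 2, had log2 ratios of -3.36, -4.77 and -3.66 (adjusted p 3.3e-15, 8.0e-19 and 4.4e-16). Ang and Ang4, ribonucleases with antimicrobial members in their family, rose by 1.13, 0.78 and 1.21, and by 1.07, 0.76 and 1.15, though these close paralogs may share signal. Ccr6, a chemokine receptor that β-defensins can bind, rose by 1.16, 1.01 and 1.70 (adjusted p 0.001, 0.00281 and 7.1e-06). At ZT16 3 of 6 controls were well above background, so the size of that rise is not fully measured.

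Of 10 M-band and titin-linked genes besides Myom2, 2 were higher and 0 lower at ZT8, 1 and 2 at ZT12, and 0 and 2 at ZT16. Beside these, 16.7%, 19.6% and 19.9% of all genes were higher and 18.7%, 22.6% and 20% lower. Myom1, the broadly expressed myomesin, rose at ZT8 by at least 1.88-fold (adjusted p 1.2e-05) and gave 0.40 and 0.39 later (adjusted p 0.367 and 0.393). Myom3 rose by 1.62 at ZT8 and fell by 1.39 at ZT12 and by 3.39 at ZT16 (adjusted p 0.0153, 0.0319 and 5.2e-06). It was well above background on 12 knockout and 14 control arrays, so these sizes are not fully measured. The giant sarcomere protein gene Ttn fell by 0.46 at ZT12 (adjusted p 0.00843), and Nbr1, an autophagy receptor gene that titin kinase signalling uses, rose by 0.39 there (adjusted p 9.2e-04).

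Other G protein γ genes were also called in both directions. Of 8 tested, 1 was higher and 2 lower at ZT8, 2 and 2 at ZT12, and 3 and 2 at ZT16. For all genes the shares were 16.7%, 19.6% and 19.9% higher and 18.7%, 22.6% and 20% lower. The cone transducin γ gene Gngt2 gave 0.39, 0.71 and 0.68 (adjusted p 0.17, 0.00984 and 0.0133). Gng2 rose by 0.47, 0.76 and 0.69, and Gng10 fell by 0.39, 0.44 and 0.52, each called at all 3 times. Gng5 fell at ZT12 and ZT16, by 0.34 and 0.30, and Gng7 rose by 1.69 at ZT16 (adjusted p 6.0e-05), where 1 of 6 controls was well above background.

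Of 8 β subunits and transducin partners, 3, 3 and 4 were higher and 1, 0 and 0 lower at ZT8, ZT12 and ZT16. The shares over all genes were 16.7%, 19.6% and 19.9% higher and 18.7%, 22.6% and 20% lower. Gnat1, the rod transducin α gene, rose by 1.66 at ZT16 (adjusted p 3.9e-05) and gave -0.49 and 0.007 before. Gnat2, its cone counterpart, rose by 0.67 at ZT8 and 1.39 at ZT16 (adjusted p 0.00954 and 1.8e-06). Gnb4 rose by 0.36 and 0.29 at ZT8 and ZT12, and Rack1, a β-like scaffold, by 0.32, 0.25 and 0.34.

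**Figure D4:**
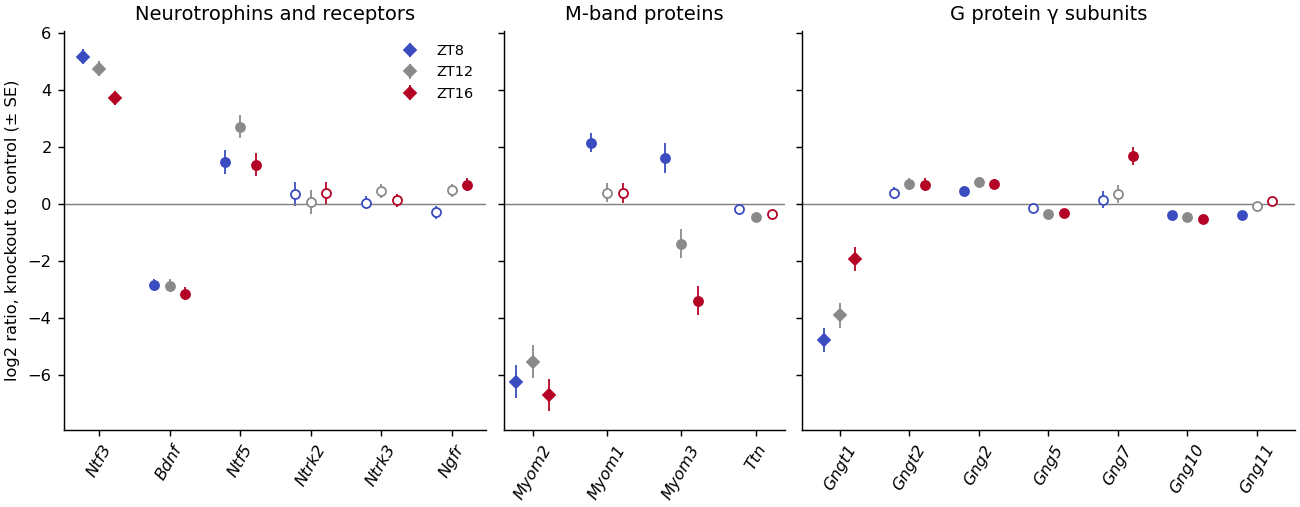
Log2 ratios of knockout over control from the fit (± SE) at the 3 times for neurotrophins and their receptors, M-band proteins and G protein γ subunits; diamonds are Ntf3, Myom2 and Gngt1, filled circles passed limma's adjusted p threshold and open circles did not. The 3 diamonds lie farther from 0 than their relatives at ZT8, but they were chosen for large ratios, so nothing is read from this. Myom3 runs from 1.62 at ZT8 to -3.39 at ZT16.

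Markers of the tissues where the members are best known were read on the same arrays, each list as the sum of its linear signals relative to the 75th percentile. All 8 hepatocyte markers were well above background on every array, and their sum was lower in all knockouts than in any control at ZT12 (2800 to 3530 against 3730 to 4100) and ZT16 (3050 to 3310 against 3770 to 4430), with overlap at ZT8. The markers did not move as a set. By limma 0, 2 and 0 of them were higher and 2, 3 and 3 lower at ZT8, ZT12 and ZT16. For all genes the shares were 16.7%, 19.6% and 19.9% higher and 18.7%, 22.6% and 20% lower. Alb and Ttr were lower at all 3 times, and Tat and Hnf4a were higher at ZT12. The median log2 ratios of the hepatocyte markers were -0.069, -0.036 and -0.192. Of 16 skeletal muscle markers, 4 had no probe above background on any array (Myh1, Mybpc2, Actn3 and Mb), and the sum ran from 0.97 to 1.40 in controls and 0.90 to 1.69 in knockouts. Of 14 photoreceptor markers 4 were never above background (Pde6b, Rcvrn, Prph2 and Opn1mw), with a sum of 7.83 to 10.6 in controls and 5.99 to 10.3 in knockouts. Of 8 kidney tubule markers 3 were never above it (Umod, Slc12a1 and Slc12a3), with 0.30 to 0.51 and 0.29 to 0.50.

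For the other lists the control and knockout sums were 6.64 to 13.5 and 4.25 to 10.9 (8 neuron markers), 5.01 to 13.9 and 2.81 to 12.4 (8 bile duct), 0.90 to 1.94 and 0.76 to 2.36 (8 heart muscle), 41.0 to 90.2 and 43.1 to 113 (8 stellate cell and fibroblast), 24.3 to 38.4 and 26.4 to 45.3 (6 endothelial), 33.5 to 92.6 and 53.0 to 173 (6 macrophage on the array), and 164 to 652 and 188 to 782 (6 red cell). At single times the knockout sums lay wholly above the control sums for the stellate cell and fibroblast list at ZT12 (72.8 to 84.5 against 41.0 to 71.4), the endothelial list at ZT12 (31.1 to 45.3 against 24.3 to 30.5) and the red cell list at ZT16 (407 to 710 against 219 to 377). At all 3 times this held for 7 pancreatic acinar markers, at 0.62 to 2.34 in controls and 2.42 to 5.81 in knockouts, with Cpa1, Pnliprp1 and Amy2b never above background. Among these Cela2a rose by 1.34, 2.13 and 3.48 on the log2 scale, Ctrb1 fell by 0.47, 0.70 and 0.38, and Cel was not called (limma). The part of these cells in the members' ratios was not tested.

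Defb1 and Myom2 lie on the chromosome of Insr, with their probes 19.8 Mb and 12.0 Mb from that of Insr on mm9. Of 232 other genes tested within 25 Mb of it, 36.2%, 37.9% and 40.1% were called between genotypes at ZT8, ZT12 and ZT16. The shares were 38.1%, 44.0% and 42.6% on the rest of the chromosome, and 35.3%, 42.2% and 39.8% on other chromosomes. A log2 ratio beyond 2 in size was found in 5, 8 and 11 of the 232 neighbours (2.16%, 3.45% and 4.74%). It was found in 1.4%, 2.4% and 2.1% of genes on the rest of the chromosome, and in 1.28%, 1.39% and 1.44% on other chromosomes. Neighbours well above background on all arrays of 1 genotype were ranked by the size of their mean ratio. The largest were B930025P03Rik (4.23, 6.83 and 8.42), 3930402G23Rik (2.83, 3.21 and 4.53) and Gm30692 (-2.19, -3.58 and -4.26). B930025P03Rik was well above background on 30 of 36 arrays and Gm30692 on 31, so their sizes are not fully measured. Ntf3 and Gngt1 lie on chromosome 6. Whether DNA of the floxed strain around Insr has a part in these values was not tested.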

How the data were processed

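Per the labels' protocols, Cy3-labelled cRNA from 200 ng of total liver RNA was put on Agilent SurePrint G3 arrays. The authors' scanner values are fluorescence intensity per spot, background subtracted but not scaled between arrays, extracted with Feature Extraction 10.10.1.1 per the file headers. Flags for each spot (outlier, saturated, above background) were deposited as other values of 0 or 1. A table of log2 values processed by the authors covers 32801 probes; its 36 columns have identical sorted values, so it is quantile normalized. The submitters' processing notes name limma, and the steps are not given in the sources used here. It served as an alternative.

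Each array's processed signal was put on the log2 scale with no pseudocount and the 75th percentile of its non-control spots was taken off. Outlier spots were dropped and no spot was saturated. Probes well above background on at least 6 of 36 arrays were kept (34771, less 93 with a missing value), and the brightest kept probe stood for a gene. The number of arrays sets the precision, since there are no counts. Names came from the files, updated through RefSeq (GRCm38.p6), in which the accessions of 32994 probes were found.

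Groups were compared with limma 3.58.1 in R 4.3.3, with 6 group means and wash batch (3 of 11, 12 and 13 arrays, all 6 groups in each) as terms, 28 residual degrees of freedom and Benjamini-Hochberg adjustment over 23054 genes at 0.05. Exact permutation tests were two-sided. Nothing in the labels beyond titles says the mice were independent, so p-values measure the spread between these samples. A level not above background in a whole group gives an "at least" ratio. It is taken against the higher of the probe's own signal and the lowest signal well above background, averaged over the group's arrays. Such a bound holds for the main processing only. The fit was tested on simulated data. The 4 genes and all lists were chosen with earlier results of these data known. Beside the members and Insr, genes are named by likeness (the 3 highest r by each measure), by the smallest p in a list (up to 4), as relatives of a member, or as the 3 largest ratios near Insr; a few genes that these rules and lists take in are not reported here. Alternatives were normexp (offset 50), quantile scaling, the authors' table, no or a stricter dim-probe filter, no wash batch, slide or replicate number as a block, only the groups compared, array weights, the mean of a gene's probes, and leaving out each array.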

Additional observations from a re-analysis of the deposited data

Results flagged for a closer look

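Within groups of 6 arrays, 30 groups of a member or Insr were searched for a lone high or low value by Dixon's limit on the gap over the range, and 4 passed where chance gives about 1 in 20, or 1.5. Knockout ZT8 replicate 3 held a pair of them, with Ntf3 at 1.01 (others 1.93 to 2.17) and Myom2 at 0.19 (others -4.55 to -2.88). Ntf3 was -0.32 in knockout ZT16 replicate 6 (others 0.73 to 1.26), and Insr was -3.75 in knockout ZT16 replicate 5 (others -3.24 to -3.08).

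Among 33 named genes of the pathway lists, 7 had a genotype ratio that differed between ZT8 and ZT16 by limma's interaction test, where 9.75% of all genes tested passed it. The 33 had been named for a small genotype p or as relatives of a member. The differences in log2 ratio were 1.37 for Sort1 (adjusted p 1.2e-04), -0.89 for Pcsk5 (9.0e-04), -0.67 for Pcsk6 (0.016), -1.77 for Myom1 (0.0178), -5.00 for Myom3 (4.6e-05), 1.53 for Gng7 (0.0217) and 2.15 for Gnat1 (9.0e-04). Myom1, Myom3 and Gng7 were at background on part of the arrays, so the sizes of their differences are not fully measured.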

How the results depend on the processing

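No result changed direction under the 11 alternatives or when 1 array was left out, among values past a threshold. With normexp correction, which lifts dim signals by its offset, the log2 ratios at ZT8, ZT12 and ZT16 were 1.72, 1.37 and 1.34 for Defb1 and -1.73, -1.42 and -0.98 for Gngt1, while Ntf3 gave 3.72, 3.42 and 2.60, and Myom2 -4.80 at ZT8 and -5.89 at ZT16. In the authors' deposited table the ratios were 2.44, 2.11 and 2.12 for Defb1, 4.24, 3.94 and 3.07 for Ntf3, and -2.46 at ZT8 and -1.89 at ZT12 for Gngt1. The ZT16 minus ZT8 difference of the Gngt1 ratio was 0.75 with normexp and 1.15 in that table. The rise of Gngt1 in knockouts lost its call with normexp (0.41 from ZT8, adjusted p 0.143, and 0.31 from ZT12, adjusted p 0.398) and from ZT12 in the authors' table (0.46, adjusted p 0.233). Without a filter on dim probes, the ZT12 to ZT16 fall of Ntf3 in knockouts was -0.80 (adjusted p 0.0691), and with only the groups compared -0.75 (adjusted p 0.153).

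Calls were gained for Myom2. Its ZT8 to ZT16 difference in controls was 1.46 with normexp (adjusted p 0.00361), 1.49 in the authors' table (0.00969), 1.47 with only the groups compared (6.1e-05) and 1.40 with array weights (0.00837). The ZT8 to ZT12 difference in controls was 0.90 with only the groups compared (0.02), and in knockouts array weights gave 1.47 from ZT8 to ZT12 (0.0276) and 1.19 from ZT8 to ZT16 (0.0342). Leaving out 1 array, the knockout differences of Myom2 ran from 1.00 to 2.29 for ZT8 to ZT12 (adjusted p 0.00115 to 0.284) and from 0.62 to 1.67 for ZT8 to ZT16 (0.00674 to 0.499). The ZT12 to ZT16 difference of Ntf3 in knockouts ran from -0.98 to -0.58 (0.0145 to 0.133). The cause of these changes was not tested.

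Same-numbered samples did not deviate together (correlations of -0.34 to 0.20, with 0 of 9 comparisons having all over 0.1), so the numbers were not taken to pair samples. With the replicate number as a block, the Ntf3 fall from ZT12 to ZT16 in knockouts was -0.78 (adjusted p 0.0689), and no other call on the members changed. Over all genes, the fit of only the groups compared called 618 against 3048 genes from ZT8 to ZT12 in knockouts, 1684 against 2900 from ZT12 to ZT16, 4362 against 6662 from ZT8 to ZT16, and 328 against 834 from ZT12 to ZT16 in controls, which were 494 without a filter. Signal over background limits the sizes for Defb1 in controls and Gngt1 in knockouts.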
